A study of Saccharomyces cerevisiae with 9 samples.

Results

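The histone genes of budding yeast were followed along the chromatin map of WT cells. Of the 10 histone genes listed, 6 had a row in both deposited MNase-Seq tables and are described here. They are HTA1 (YDR225W) and HTA2 (YBL003C), which encode H2A, HTB1 (YDR224C), which encodes H2B, HHT1 (YBR010W), which encodes H3, HHF1 (YBR009C), which encodes H4, and HHO1 (YPL127C), which encodes the linker histone H1. The rule was a match of the gene name in both tables, so the rule itself uses no measured value. HTB2 (YBL002W), HHT2 (YNL031C), HHF2 (YNL030W) and HTZ1 (YOL012C), the gene of the H2A.Z variant, had no row and carry no signal values below. The 6 genes are part of 2426 protein-coding genes in each table.

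The study asked how loss of Rtr1, a phosphatase of the RNA polymerase II (RNAPII) C-terminal domain, alters transcription termination in Saccharomyces cerevisiae. Its series holds 9 samples, and only the MNase-Seq sample was analysed here. That sample is 1 library of total histone MNase-Seq from WT cells with an intact RTR1 gene, grown to an OD600 of 0.8, with no further treatment named in the labels. The comparison with cells lacking RTR1 was not analysed here. Micrococcal nuclease (MNase) digests the DNA between nucleosomes, so that reads pile up where a nucleosome protects the DNA. Because the library has no replicate, none of the differences below has an error across cultures, no test was made, and a rank among genes describes this library only.

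The core histones are the proteins that wrap DNA into nucleosomes. In budding yeast each core histone is encoded by a pair of near-identical genes, and the genes lie head to head, H2A with H2B and H3 with H4, around promoters that both neighbours share. They are transcribed in S phase, when new DNA must be packaged. The activator Spt10 binds paired elements in these promoters, and the HIR complex with the chaperone Asf1 represses most of them outside S phase. HHO1 has a different layout, because it is present once and shares its upstream region with NAN1, a gene of ribosomal RNA processing.

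The table around the transcription start site (TSS) gave 1 value each 25 nucleotides from 500 nucleotides upstream to 1000 nucleotides downstream, and the table around the transcript end site (TES) covered 200 nucleotides on each side. Values are coverage in RPM, that is, reads scaled to the size of the library. The outermost values of each row are whole multiples of 0.0300 RPM, the worth of 1 read, which corresponds to about 3.33e+07 reads. Values between them need not be, as in HHT1 at 175 nucleotides (0.0269 RPM). Numbers of reads given for single bins are therefore equivalents and not counts. The median bin around the TSS was worth 203 reads. A level of 3 reads is therefore 0.0901 RPM. Neighbouring bins are covered by the same reads and are not independent.

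In the 5 core histone genes the signal was high where most promoters are depleted of nucleosomes. Over the coding sequence it fell close to 0 for a long stretch in HTA1, HHT1 and HHF1, and only in shorter troughs in HTA2 and HTB1. The medians of the coding bins were 0.227 RPM for HHF1, 0.654 for HHT1, 0.727 for HTA1, 1.70 for HTA2 and 4.71 for HTB1. The Spt10 elements of the shared promoters are printed first because the positions of the nucleosomes below are given against them. Each element consists of TTCC and TTCNC with 6 bases between, searched on both strands of the whole intergenic region, and the capitals mark the 15 bases of the match in the R64 genome (RefSeq, the same assembly as sacCer3). Each line reads 5′ to 3′ on the strand of the match.
HTA1-HTB1, chrIV:915104-915138, + strand: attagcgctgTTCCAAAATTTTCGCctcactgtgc
HTA1-HTB1, chrIV:915127-915161, - strand: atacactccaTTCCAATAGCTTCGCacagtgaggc
HTA2-HTB2, chrII:236098-236132, - strand: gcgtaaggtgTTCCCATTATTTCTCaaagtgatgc
HHF1-HHT1, chrII:255934-255968, - strand: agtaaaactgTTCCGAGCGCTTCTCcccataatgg
HHT2-HHF2, chrXIV:576336-576370, - strand: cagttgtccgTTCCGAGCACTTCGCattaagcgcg

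The HTA1-HTB1 promoter held 2 matches and each of the other core histone promoters held 1. The region between HHO1 and NAN1 held 0. Among the 600 bases before the start codon of 2424 genes in the table, 87 regions (3.59%) held a match. The intergenic regions were 817 bases long for HTA1-HTB1, 699 for HTA2-HTB2, 646 for HHF1-HHT1, 676 for HHT2-HHF2 and 605 for HHO1-NAN1, with a GC content from 33.5% to 42.5%. A TATA element, taken as TATAAA or TATATA on either strand within 200 bases before the start codon, was present before all 8 core histone genes, which included 3 genes with no row, and before neither HHO1 nor HTZ1. The same search found one before 1166 of 2424 genes (48.1%). A match of letters is a description and not proof of a bound site.

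The divergent partners gave a check on the positions, since both rows then cover the same bases. When the HTB1 profile was reversed and slid along that of HTA1, the closest match put the TSSs 715 nucleotides apart (Pearson r = 0.973 over 285 shared nucleotides, median difference 6.72%). For HHT1 and HHF1 the distance was 585 nucleotides (r = 0.941 over 415 shared nucleotides, 5.95%). For HHO1 and NAN1 it was 530 nucleotides (r = 0.990 over 470 shared nucleotides, 3.33%). The start codons of these pairs lie 818, 647 and 606 nucleotides apart, which leaves the difference for the leaders of both genes together. Over the shared nucleotides the 2 rows of a pair are thus the same reads seen from both ends and do not count as 2 observations. For each of these pairs the +1 and body bins described below lie outside the shared stretch, so the match does not check them. For HTA1 and HTB1 the depletion bins lie outside it as well. For HHT1 and HHF1 the depletion bins at -75 and -50 nucleotides do so too. The tables do not list the TSS positions, so each leader was taken as an equal share of that difference, and as 40.6 nucleotides for HTA2, whose partner HTB2 has no row. For HTA1 this share would leave ADK1, matched below, almost no leader, so the split may be uneven. An uneven split would shift the coding windows and the readings at the elements.

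**Figure D1:**
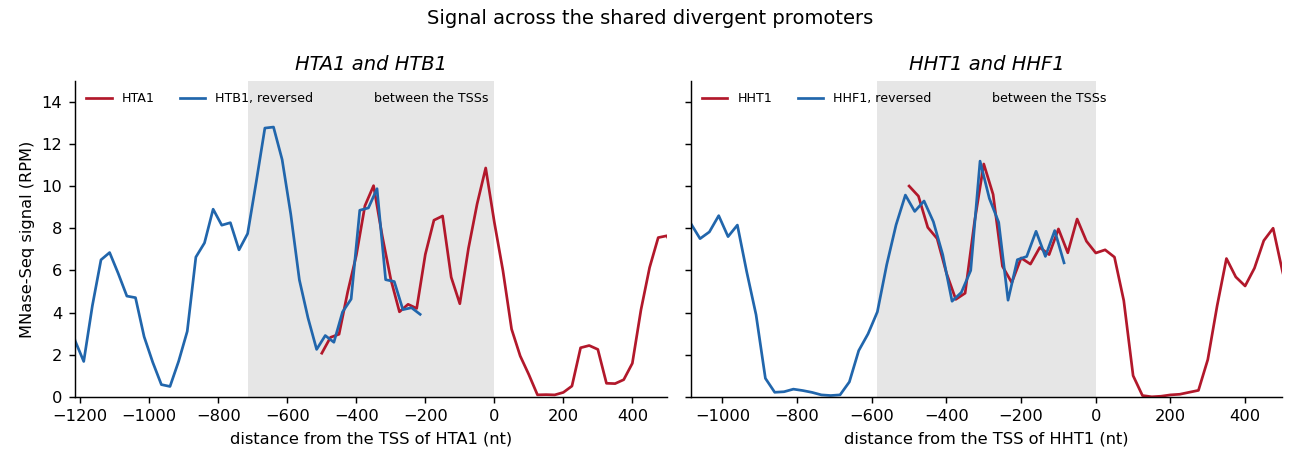
MNase-Seq signal (RPM) against the distance from the TSS of HTA1 (left) or HHT1 (right) in nucleotides, in the 1 WT library. The red line is the named gene, the blue line its partner reversed and shifted by 715 or 585 nucleotides, and the grey area lies between the TSSs. Where the lines overlap they trace the same peaks, and both fall close to 0 inside the coding sequences on either side.

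Across all genes the signal fell to its lowest level just before the TSS and rose to its highest level just after it, over the first or +1 nucleosome. Averaged over the bins from 125 to 50 nucleotides upstream of the TSS, here called the depletion, the median of all genes was 4.38 RPM and the upper quartile 5.72 RPM. HTB1 reached 11.4 RPM there, rank 2422 of 2426 counted from the lowest. HTA2 reached 10.9 RPM, rank 2416. HHF1 stood at 8.96 RPM, rank 2375. All of these exceeded the level that 95% of genes stay under, 8.03 RPM. HHT1 at 7.50 RPM (rank 2250) and HTA1 at 6.58 RPM (rank 2070) were above the upper quartile as well. HHO1 at 4.56 RPM, rank 1298, sat near the middle of all genes.

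Over the +1 bins, from 0 to 75 nucleotides, the order turned over. The median of all genes was 8.77 RPM, and all 6 histone genes were below it. The H4 gene HHF1 had 2.48 RPM, rank 14 of 2426. The H2A genes followed with 4.86 RPM for HTA1 (rank 90) and 5.37 RPM for HTA2 (rank 130). HHT1 had 6.25 RPM (rank 250), HHO1 6.97 RPM (rank 448) and HTB1 7.79 RPM (rank 772). HTB1 was thus close to an ordinary gene on this measure. With the leaders used, 31 to 51.5 nucleotides in the core histone genes, the bin at 75 nucleotides already lay past the start codon. It read 2.16 RPM in HTA2, 0.707 in HHF1 and 4.57 in HHT1. The sequence around it differed from the near-identical partner copy at 0, 1 and 6 bases, respectively. Whether reads left out over such sequence lowered the +1 values was not tested.

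As a ratio of the +1 bins to the depletion, which does not depend on the library's scale, the median of all genes was 2.00. The value was 0.277 for HHF1, the 2nd lowest of 2422 genes with a defined ratio, 0.492 for HTA2, 0.684 for HTB1, 0.739 for HTA1 and 0.833 for HHT1. The signal at the depletion therefore exceeded that over the +1 bins in 5 of 6 histone genes, against 8.66% of all genes (210 of 2426). HHO1 was the exception with a ratio of 1.53. In the core histone genes the +1 bins reach into the coding sequence. An effect of left-out reads on their ratios and on this count was not tested. The result depends in part on the assumed start of the table. With a window taken to start 200 nucleotides upstream, as the table is named, 3 of 6 histone genes were above the median at the depletion. With the start at 500 all 6 were above it. The start at 200 would, however, put both the lowest and the highest mean of all genes downstream of the TSS. The start at 500 puts them at -75 (4.18 RPM) and at 25 nucleotides (9.03 RPM). For comparison, NAN1 on the other side of the HHO1 promoter had 5.16 RPM at the depletion and 9.97 RPM at the +1 bins.

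**Figure D2:**
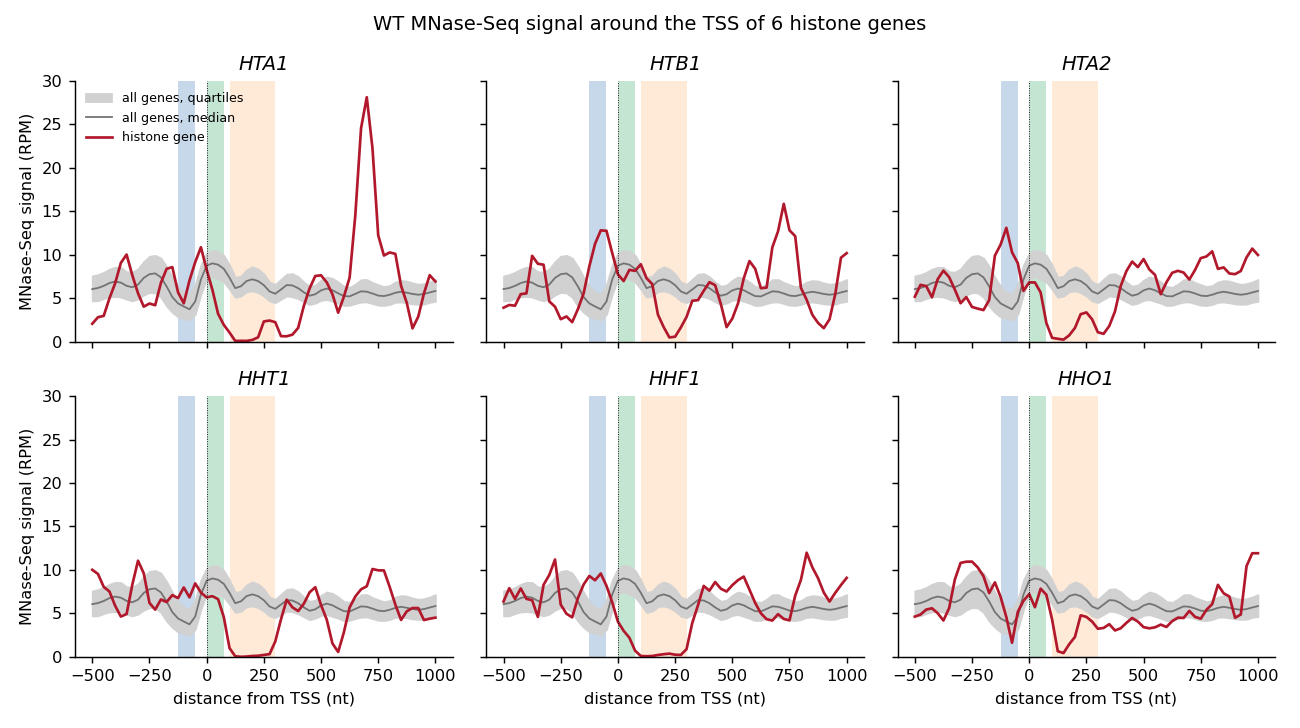
MNase-Seq signal (RPM) against the distance from the TSS (nucleotides) for the 6 histone genes (red), with the median (grey line) and quartiles (grey band) of all 2426 genes at each position. Blue marks the depletion bins, green the +1 bins and orange the gene body bins. In the 5 core histone genes the red line lies above the median in the blue area, and all 6 genes have a bin under 1 RPM in the orange one. HTA1 rises to 28.1 RPM at 700 nucleotides.

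The positions of the peaks next to the TSS differed among the genes. The highest bin within 150 nucleotides of the TSS was at -25 for HTA1 (10.9 RPM), at -75 for HTB1 (12.8 RPM), at -100 for HTA2 (13.1 RPM), at -50 for HHT1 (8.45 RPM) and at -75 for HHF1 (9.58 RPM). In HTB1 and HTA2 this was 1 distinct peak that stood above its surroundings on both sides. In HHT1 the signal stayed between 6.30 and 8.45 RPM from 200 nucleotides upstream to 50 nucleotides downstream, with no clear trough. HHO1 showed the usual form, with a narrow minimum of 1.61 RPM at -75 flanked by 8.56 RPM at -150 and 7.84 RPM at 50.

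The lowest signal of the last 300 nucleotides also lay at other positions. HTB1 fell to 2.25 RPM at -200 and HTA2 to 3.64 RPM at -200. HTA1 had 4.04 RPM at -275 and 2.07 RPM at -500, the same bases that lie before HTB1. The HHF1-HHT1 promoter had no depleted stretch by this measure. Within these 300 nucleotides HHT1 did not fall under 5.42 RPM, and the minimum of HHF1, 4.04 RPM, was at the TSS itself. Farther upstream HHT1 dipped to 4.63 RPM at -375. The width of the depletion, counted as the stretch around the lowest bin of the last 300 nucleotides under 3.13 RPM, or 0.5 times the mean of all genes and bins, was 75 nucleotides for HTB1 and 25 for HHO1. It was 0 for the other 4 genes, against a median of 50 for all genes. HTB1 thus had a depleted region of ordinary width at another position, and when the lowest bin between -250 and 0 was used in place of the fixed bins, 45.1% of genes were lower than HTB1, where 99.8% had been lower.

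Farther upstream, from 500 to 150 nucleotides before the TSS, the histone genes were ordinary. The values were 5.89 RPM for HTA1, 5.12 for HTB1, 5.85 for HTA2, 7.41 for HHT1, 7.07 for HHF1 and 7.49 for HHO1, around a median of 6.79 RPM for all genes. Single peaks stood out of this average. HTA1 and HTB1 shared a peak midway between them, read as 10.03 RPM at -350 from HTA1 and 9.88 RPM at -375 from HTB1. HHT1 and HHF1 likewise shared one, with 11.1 RPM at -300 and 11.2 RPM at -275.

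The elements printed above lay differently against these peaks. Both matches of the HTA1-HTB1 promoter fell on the shared peak, where the signal read 9.25 and 8.93 RPM from HTB1 and 9.74 and 8.56 RPM from HTA1. The match of the HHF1-HHT1 promoter lay in a dip beside its peak, where the signal read 5.42 RPM from HHF1 and 5.06 RPM from HHT1. The match of the HTA2-HTB2 promoter lay at 4.93 RPM in the row of HTA2. As TSS positions are not listed, these readings can be off by the length of a leader, and elements in 3 promoters are too few to describe a rule.

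Over the gene body, from 100 to 300 nucleotides past the TSS, all 6 histone genes were among the lowest of the table. The median of all genes was 6.65 RPM and 5% of genes were under 4.06 RPM. HHF1 had 0.271 RPM (rank 23 of 2426), HHT1 0.398 RPM (rank 28), HTA1 1.01 RPM (rank 31) and HTA2 1.51 RPM (rank 38). HHO1 followed with 2.86 RPM (rank 59) and HTB1 with 3.69 RPM (rank 92). The signal of the H3 and H4 genes was thus 0.0599 and 0.0408 times the median.

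The lowest bins were worth a few reads or less. HHT1 had 0 RPM at 150 nucleotides, that is, under 0.001 RPM in this library, and no interval for counting error was made for it. HHF1 had 0.0600 RPM at 125 nucleotides, the worth of 2 reads. HTA1 had 0.0900 RPM at 175 nucleotides, the worth of 3 reads. HTA2 fell to 0.237 RPM at 150 nucleotides, HHO1 to 0.432 RPM at 150 nucleotides and HTB1 to 0.491 RPM at 225 nucleotides. All 6 genes had a bin under 1 RPM in this stretch, against 3.63% of all genes (88 of 2426).

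The place where the trough ended differed among the genes. In HHF1, whose coding sequence of 312 nucleotides is the shortest, the signal went from 0.878 RPM at 300 to 3.90 RPM at 325 and 8.16 RPM at 375 nucleotides. HHT1, with a coding sequence of 411 nucleotides, went from 0.305 RPM at 275 to 6.57 RPM at 350, well inside it. HTA1 stayed at or below 2.44 RPM from 75 to 400 nucleotides, then reached 7.56 RPM at 475. HTB1 also recovered within its coding sequence, to 4.71 RPM at 325 and 6.85 RPM at 400. Over the whole TSS window the means were nearer the median of 6.30 RPM, from 5.55 RPM for HHO1 (rank 530 of 2426) to 6.38 RPM for HTA2. The low body was thus a local feature of these windows, and it depended on the length taken. From 100 to 1000 nucleotides, which runs past the TES of every histone gene and takes in the HTA1 peak at 700 nucleotides, HTA1 and HTA2 were higher than 60.7% and 57.6% of genes, whereas HHT1 was higher than 10.5%, HHO1 than 12.7%, HHF1 than 34.1% and HTB1 than 49.8% of genes.

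The stretches of low signal were compared with the sequence, because each core histone gene has a second copy elsewhere in the genome. The coding sequences of HHF1 and HHF2 were 97.4% identical, those of HTA1 and HTA2 93.7%, those of HHT1 and HHT2 93.2% and those of HTB1 and HTB2 87.9%. The longest run without a difference was 80 bases in HHF1, 74 in HHT1, 65 in HTA1 and HTA2 and 35 in HTB1. The windows of 50 bases below are centred on the bin with the lowest and the bin with the highest signal inside the coding sequences of HHT1, HTB1 and HHF1. They are shown in lower case with the bases that differ between the copies in capitals, on the coding strand.

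In HHT1 the lowest bin, 0 RPM at 150 nucleotides, covered a window with 1 difference from HHT2.
HHT1, chrII:256425-256474, + strand: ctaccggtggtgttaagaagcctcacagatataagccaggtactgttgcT
HHT2, chrXIV:575907-575956, - strand: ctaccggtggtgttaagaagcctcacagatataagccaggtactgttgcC
The highest bin of the same coding sequence, 6.57 RPM at 350 nucleotides, covered a window with 7 differences.
HHT1, chrII:256625-256674, + strand: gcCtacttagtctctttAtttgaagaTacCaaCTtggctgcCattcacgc
HHT2, chrXIV:575707-575756, - strand: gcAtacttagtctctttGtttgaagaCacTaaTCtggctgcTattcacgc

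In HTB1 the lowest bin, 0.491 RPM at 225 nucleotides, covered a window with 4 differences from HTB2.
HTB1, chrIV:914515-914564, - strand: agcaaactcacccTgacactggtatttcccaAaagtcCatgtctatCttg
HTB2, chrII:236640-236689, + strand: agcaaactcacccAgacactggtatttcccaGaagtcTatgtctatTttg
The highest bin, 8.91 RPM at 100 nucleotides, covered a window with 8 differences.
HTB1, chrIV:914639-914688, - strand: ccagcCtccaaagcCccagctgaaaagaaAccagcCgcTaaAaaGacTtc
HTB2, chrII:236516-236565, + strand: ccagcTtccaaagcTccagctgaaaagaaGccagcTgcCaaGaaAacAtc

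HHF1 did not show such a contrast, as all of its coding bins were between 0.0600 and 0.878 RPM and none of its windows had more than 3 differences from HHF2. Its lowest bin, at 125 nucleotides, covered a window with 2 differences.
HHF1, chrII:255566-255615, - strand: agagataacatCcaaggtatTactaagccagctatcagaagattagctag
HHF2, chrXIV:576796-576845, + strand: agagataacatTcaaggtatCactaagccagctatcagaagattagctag
Its highest bin, at 300 nucleotides and next to the end of the coding sequence, covered a window identical in both copies.
HHF1, chrII:255391-255440, - strand: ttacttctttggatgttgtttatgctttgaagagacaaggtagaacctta
HHF2, chrXIV:576971-577020, + strand: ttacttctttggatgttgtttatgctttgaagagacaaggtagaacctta

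Across the 65 coding bins of the 5 core histone genes, the signal was higher where the copies differed more. The 16 bins with 0 to 1 differences in their window had a median of 0.213 RPM and 13 of them were under 1 RPM. The 22 bins with 2 to 3 differences had a median of 0.602 RPM, with 14 under 1 RPM. The 27 bins with 4 or more differences had a median of 4.13 RPM, ranged from 0.207 to 8.91 RPM, and 5 were under 1 RPM. The genes are spread unequally over these classes, and HHF1 has no bin in the last. The steps between the medians therefore mix differences within genes with differences between them. Pearson's r between differences and signal was 0.769 over the 65 bins, which share reads with their neighbours and come from 5 genes. Within single genes it was 0.937 for HHT1 (14 bins), 0.688 for HTB1 (13 bins), 0.400 for HTA2 (14 bins), 0.387 for HTA1 (14 bins) and -0.27 for HHF1 (10 bins). The relation was thus clearest in HHT1 and HTB1. It was weaker in HTA1 and HTA2, whose windows are not printed. Windows of HTA1 with 5 differences read 0.207, 0.510 and 4.13 RPM.

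**Figure D3:**
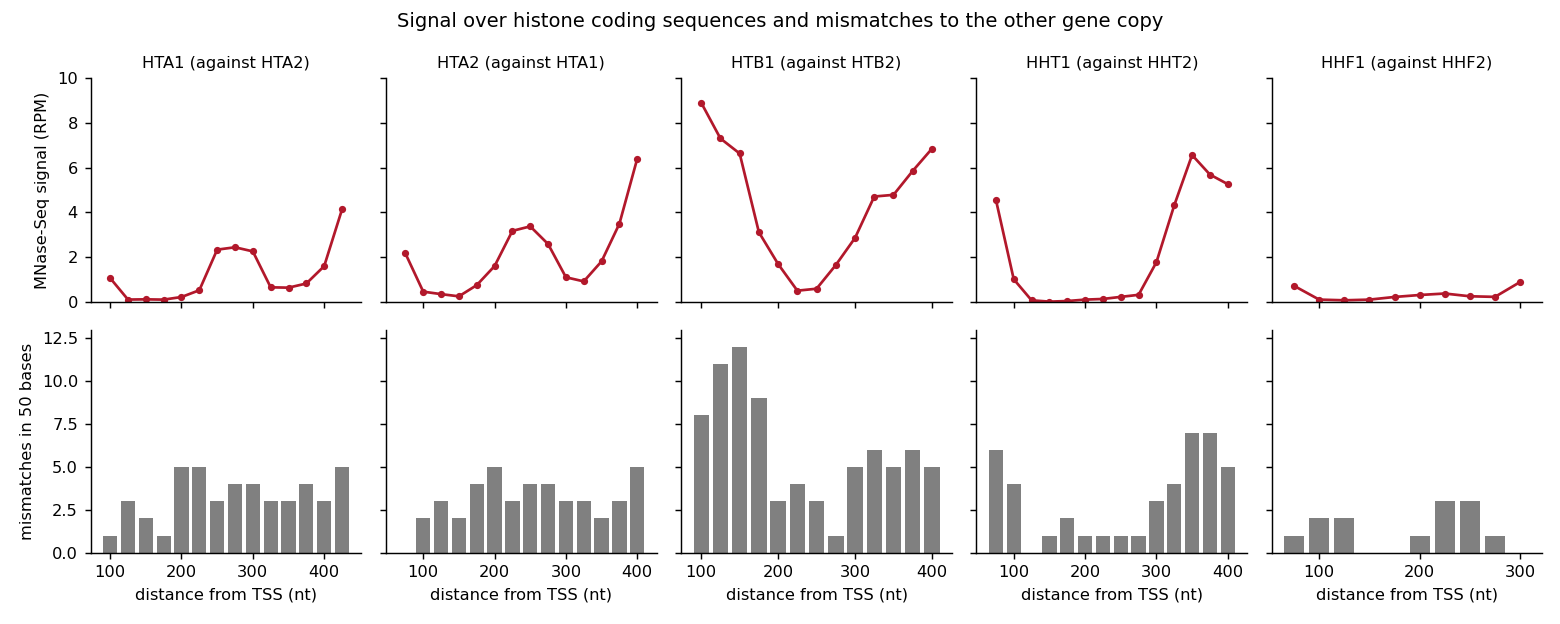
Top, MNase-Seq signal (RPM) at each 25-nucleotide bin within the coding sequence of 5 core histone genes, against the distance from the TSS (nucleotides). Bottom, the number of bases that differ from the other gene copy in the 50 bases centred on the bin. In HHT1 and HTB1 the signal is low where the bars are low, with 0 RPM at 1 difference and 8.91 RPM at 8 differences as the extremes, and HHF1 is low throughout.

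The same association was present among genes that are not histone genes. Bases 51 to 250 of each coding sequence were searched against the genome for a second copy of at least 150 bases. In the 52 other genes with a copy at least 90% identical the median body signal was 0.400 RPM, and 45 (86.5%) had a bin under 1 RPM. In the 25 others with a copy of 80 to 90% the median was 5.29 RPM and 6 (24%) had such a bin. In the 2333 others with no such copy it was 6.68 RPM and 31 (1.33%) had one. HTA1, HTA2, HHT1 and HHF1 belonged to the first of these classes, and HTB1, with a copy 87.5% identical, to the second. HHT1 and HHF1 were near the median of their class, and HTB1 at 3.69 RPM was below the lower quartile of its own, 4.36 RPM.

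Most of these sequences were still unique over short stretches. The share of 50-base stretches that occur once in the genome was 78.7% for the HHF1 coding sequence, 87.8% for HHT1, 95.4% for HTA1 and HTA2 and 100% for HTB1. How the mapping treated reads that fit 2 places equally well, or nearly so, is not given in the sources used here. From these tables, few nucleosomes over a histone coding sequence cannot be told apart from reads of it that were left out.

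HHO1 had no copy by this search, and all of its 50-base stretches were unique. Its body signal was nevertheless low, and its lowest bin put it beside the 31 others without a copy that fell under 1 RPM. The trough was narrow, going from 7.14 RPM at 75 nucleotides to 0.636 at 125, 0.432 at 150 and 1.45 at 175, and back to 4.77 RPM at 225. From 300 to 700 nucleotides the signal remained between 3.03 and 5.28 RPM, where the medians of all genes were from 5.22 to 6.52 RPM. The window at the lowest bin is printed below. It has a GC content of 50%, against a median of 46% over the 29 windows of this coding sequence, which ranged from 34% to 64%.
HHO1, chrXVI:309468-309517, - strand: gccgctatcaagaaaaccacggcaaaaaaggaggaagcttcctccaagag

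**Figure D4:**
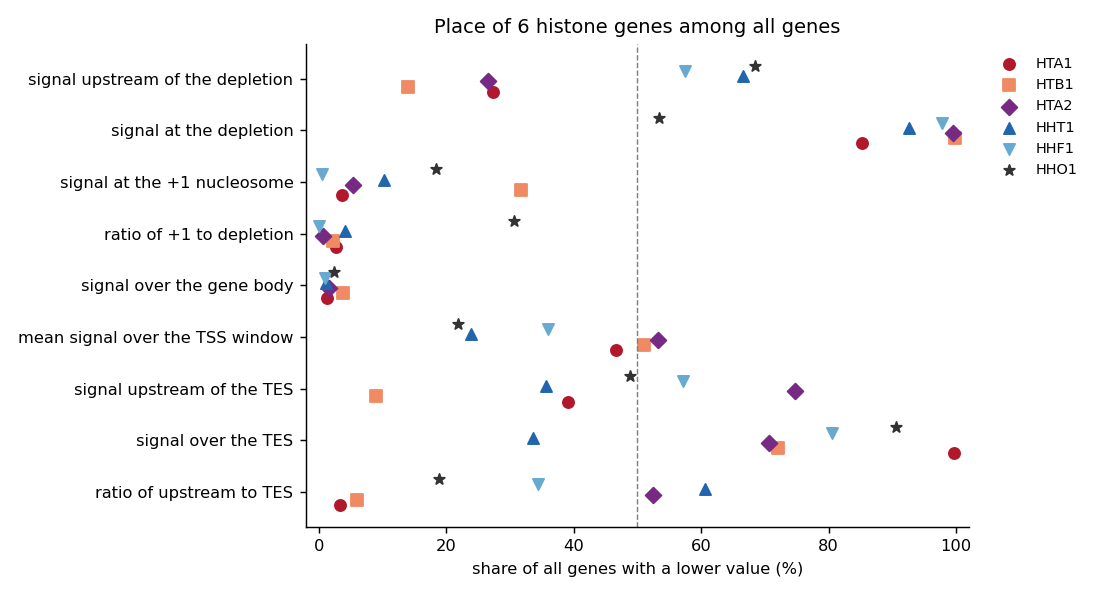
Share of all genes with a lower value (%) for each of 9 measures, 1 symbol per histone gene, in the 1 WT library. The dashed line is at 50%. The 5 core histone genes lie at the right for the depletion and at the far left for the ratio of the +1 bins to it and for the gene body, where HHO1 joins them.

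At the 3′ end the histone genes had little in common. Matching each TSS profile with the TES profile of the same gene put the TES 625 nucleotides past the TSS in HTA1, 560 in HTB1, 605 in HTA2, 600 in HHT1, 520 in HHF1 and 940 in HHO1 (r from 0.958 to 0.995). The transcript thus extended 163 to 226 nucleotides beyond the coding length, leader included. Over the TES, from 30 nucleotides before to 80 after, the median of all genes was 6.04 RPM. HTA1 stood at 16.8 RPM, rank 2421 of 2426. HHO1 with 9.55 RPM, HHF1 with 8.24, HTB1 with 7.53 and HTA2 with 7.45 were above the median, and HHT1 with 4.92 RPM was below it.

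The HTA1 value came from a single peak. It reached 28.1 RPM at 73.3 nucleotides past the TES, the worth of 937 reads and the 7th highest maximum of any gene in the TES table. The same peak stood at 700 nucleotides in the TSS table, where it was the 19th highest. It lies between HTA1 and ADK1, the adenylate kinase gene next downstream on the same strand, whose row matched that of HTA1 at a distance of 1005 nucleotides (r = 0.997, median difference 3.71%), so the peak appears in both rows. All 50-base stretches around the HTA1 TES were unique. HTB1 had a smaller peak of 16.4 RPM at 160 nucleotides past its TES, the 62nd highest maximum, and 15.9 RPM at 725 nucleotides from its TSS. No other histone gene had a maximum above 12.3 RPM in the TES table, where the median maximum was 11.1 RPM.

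**Figure D5:**
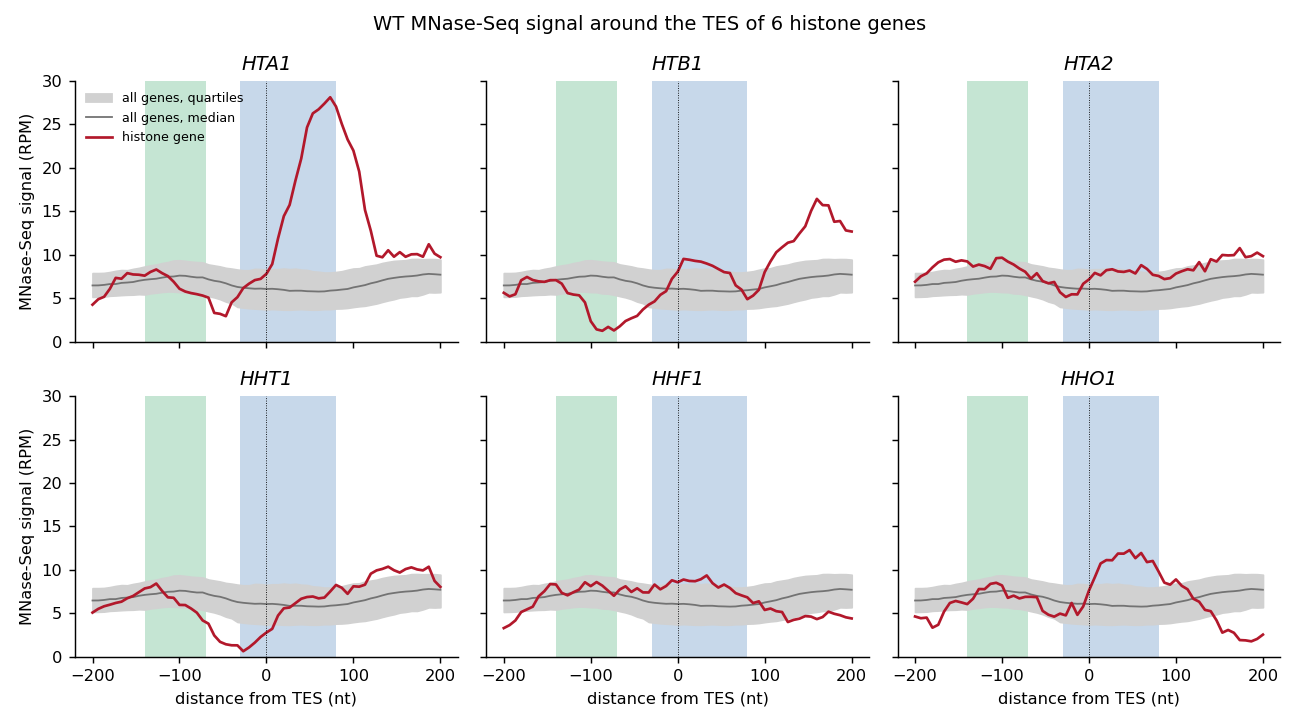
MNase-Seq signal (RPM) against the distance from the TES (nucleotides) for the 6 histone genes (red), with the median (grey line) and quartiles (grey band) of all 2426 genes. Green marks the bins upstream of the TES and blue the TES bins. Past the TES, HTA1 rises to 28.1 RPM, HTB1 to 16.4 RPM and HHO1 to 12.3 RPM, and HHT1 falls to 0.639 RPM before it.

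Before the TES, from 140 to 70 nucleotides upstream, the values were 6.78 RPM for HTA1, 3.88 for HTB1, 8.88 for HTA2, 6.57 for HHT1, 7.82 for HHF1 and 7.35 for HHO1, against a median of 7.42 RPM. HTB1 was the only one of the 6 among the lowest 10% of genes (rank 218), and its lowest bin was 1.26 RPM at 86.7 nucleotides before the TES. HHT1 had its minimum later, 0.639 RPM at 26.7 nucleotides before the TES. The ratio of the upstream bins to the TES bins was 0.403 in HTA1, 0.516 in HTB1, 0.770 in HHO1, 0.949 in HHF1, 1.19 in HTA2 and 1.34 in HHT1, with a median of 1.16 for all genes. The TES bins were higher than the bins upstream in 4 of 6 histone genes, and 38.5% of all genes (933 of 2426) did so too, so with 6 genes nothing is read from this count.

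The genes next to the histone genes did not share the low body. The neighbours with a row were ADK1, the inorganic pyrophosphatase gene IPP1, UTP20 and NAN1 of ribosome assembly, the transporter gene FLR1 and TBF1, which encodes a telomere-binding factor. Their body signals ranged from 4.73 RPM (ADK1) to 7.40 RPM (FLR1). At the depletion they had from 2.36 RPM (UTP20) to 5.68 RPM (TBF1), and each had more signal at the +1 bins than at the depletion. CRF1, downstream of HTB1, had no row.

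The histone profiles were not copies of each other. Over the 61 bins around the TSS, Pearson's r between pairs of the 6 genes ranged from -0.03 (HTB1 and HHO1) to 0.691 (HTA2 and HHF1). HTA2 and HHF1 were each other's closest gene among all 2426. The closest gene was BRE5 for HTA1 (r = 0.813), ADY2 for HTB1 (0.717), ALD2 for HHT1 (0.623) and RPL1B for HHO1 (0.730). To the mean profile of the 6 histone genes the closest were RPS8A (0.679), RPS8B (0.677) and NRE1 (0.654), of which the first pair are near-identical genes of a small-subunit ribosomal protein.

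The same measures were taken for genes that regulate histone genes or carry histones. Of a list of 25 such genes, 12 had a row, among them the HIR complex gene HIR1, the chaperone genes ASF1, NAP1 and RLF2, the FACT genes SPT16 and POB3, the activator gene SPT10 and the H2A.Z exchange gene SWR1. At the depletion 11 of the 12 were below the median of all genes, from 1.07 RPM in SWR1 to 4.94 RPM in HIR1, with a list median of 3.01 RPM. Over the gene body 9 were above and 3 below the median, from 3.75 RPM in NAP1 to 10.3 RPM in SWR1. None had more signal at the depletion than at the +1 bins, against 8.66% of all genes, or a body bin under 1 RPM, against 3.63%, and with 12 genes a count of 0 is near these shares. All 12 had more signal over the TES than upstream of it, against 38.5% of all genes, with a median ratio of 0.846.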

How the data were processed

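MNase-digested DNA of 1 WT sample was sequenced by the authors on a SOLiD instrument, mapped to sacCer3 with bfast 0.7.0a and summarised with ngs.plot. The deposited values are coverage signal in RPM for 2426 genes. The ngs.plot version, any read extension and the treatment of reads with several matches are not given in the sources used here. Each gene had 101 columns, of which the outer 20 on each side repeat the edge value, so 61 were used and placed evenly from edge to edge. Values under 0.001 RPM were set to 0. Means over fixed bins were ranked among all genes (Python 3.11.15, numpy 2.4.6, pandas 2.3.3), and sequence was read from R64, where 2424 genes were found. Second copies were searched with blastn 2.17.0. The matching of divergent profiles was tested on 40 simulated pairs without noise, where the largest error of the distance was 2 nucleotides. The match with ADK1 on the same strand and those between TSS and TES profiles were not simulated. The gene names in the rule are those of a known family, but they and the lists were chosen with earlier results of these data known. All members, their neighbours, the extremes of the list and the 3 genes closest to the mean profile (1 per member) were named. With 1 sample there was no test, and intervals for counting error were not made for coverage. ChIP-exo samples were not analysed here.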

Additional observations from a re-analysis of the deposited data

How the results depend on the processing

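Counts of histone genes above or below the median of all genes were recomputed under other scales, gene sets, bin placements and thresholds, and 57 of 60 such counts were within 1.5 times the reported one. A fall from 6 to 4 genes counts as within that bound. Placing bins by their centres selected the same bins for the gene body and TES measures, so those counts and percentiles could not change. If the TSS table is taken to start 200 nucleotides upstream, 3 of 6 genes were above the median at the depletion, and the body of HTB1 was higher than 98.6% of genes. That start would put the lowest mean signal of all genes downstream of the TSS. With a threshold of 0.7 of the mean of all genes, 3 genes had a depletion narrower than the median, and the stretch of HHF1 was wider than 99.2% of genes. The HHF1 stretch began at the TSS, its lowest bin (4.04 RPM), and ran on through the low coding sequence to 325 nucleotides (3.90 RPM). It is therefore not a depletion of the promoter. Ranked against short genes only, with coding lengths up to 600 nucleotides, 1 histone gene was below the median upstream of the TES. Of 360 percentiles of single genes, 340 remained on their side of the median. The positions of peaks assume the start at 500 nucleotides. Ranking against genes with no close copy, windows of 35 or 75 bases and other TSS placements were chosen after seeing the data. The median signal of windows with 4 or more differences was then 6.57 RPM with 35 bases and 2.29 RPM with 75 bases. No paired analysis was possible because the 1 sample analysed here has no replicate. A single library of this depth cannot show how far any level varies between cultures.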
